A study of Glycine max with 24 samples.

Results

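Nitrate, ammonium and amino acid carriers were followed through the life of the soybean cotyledon and the trifoliate leaf. The set held 5 loci with 8 transcripts, of 54175 genes and 73320 transcripts listed for each tissue. These were Glyma11g03430 (annotated nitrate transporter 1.1), Glyma18g16490 (nitrate transporter 1.7), Glyma05g01380 (nitrate transporter 1:2), Glyma10g26690 (ammonium transporter 1;1) and Glyma09g21070 (amino acid transporter 1), with every listed transcript of each locus. The loci were picked for how their levels moved in these same libraries, so their levels and changes are a description, given without p-values. Where calls of these loci are counted below, the counts describe the choice of loci and are no test of it.

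RNA of cultivar Williams 82, untreated and of a single genotype throughout, was sequenced from cotyledons at 3 stages and from leaves at 5 stages, with 3 libraries per stage and 24 libraries in all. Cotyledons were taken 4 days (C-I), 15 days (C-II) and 27 days (C-III) after planting. The leaf stages, numbered 1, 3, 5, 7 and 8 in the labels and named L-I to L-V by the authors, were the vegetative stage V3 and 2, 4, 6 and 7 weeks after it. The authors' methods date the later leaf stages otherwise, so the stages are used here as an order only. The youngest cotyledons came from seedlings raised on MS medium in Magenta boxes, the older ones from plants in soil. This medium itself supplies nitrate and ammonium, so in every comparison with C-I the age of the cotyledon and its nitrogen supply cannot be told apart. Each cotyledon library came from 1 pair of cotyledons, and each leaf library from 1 trifoliate of a separate plant.

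Plants take up nitrogen mainly as nitrate and ammonium and move it between organs as nitrate and amino acids. When a cotyledon or leaf ages, its proteins are broken down and the nitrogen is exported through the phloem to growing organs. In Arabidopsis, nitrate transporter 1.1 is a nitrate carrier of both high and low affinity that also senses nitrate, nitrate transporter 1.7 loads nitrate into the phloem of older leaves, and nitrate transporter 1:2 is a low-affinity nitrate carrier that also imports abscisic acid. Arabidopsis ammonium transporter 1;1 takes up ammonium with high affinity, and amino acid transporter 1 carries basic amino acids such as arginine and lysine.

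Levels are normalized counts, that is, reads per transcript divided by a size factor of the library, and were compared within a tissue only. The libraries held between 2163050 and 20839594 reads matched to a single transcript in cotyledon and between 1852184 and 6887154 in leaf. The libraries as sequenced were larger. A count of 3 reads, taken as the floor of detection, came to between 0.833 and 8.96 normalized counts in cotyledon and between 1.71 and 8.52 in leaf. Reads that matched more than 1 transcript had been discarded, so transcripts of the same locus and close relatives were seen only through reads unique to each. In both tissues the libraries held reads of light-harvesting genes (34 loci) and of rubisco small subunit genes (4 loci) at every stage, as green tissue does. In some leaf libraries their summed level stood apart from others of the stage. Light-harvesting genes had 9771 RPM (reads scaled to a common total of reads matched to a single transcript) in L-II replicate 3, against 29612 and 38065 in the other L-II libraries. They had 3814 RPM in L-V replicate 1, against 7108 and 8753 in the other L-V libraries. Rubisco small subunit genes had 762 RPM in L-II replicate 3, against 3262 and 4160 in the other L-II libraries, 364 RPM in L-V replicate 1, against 1487 and 2162, and 3658 RPM in L-III replicate 1, against 1415 and 1576. The fits were repeated without each library in turn, as given below. What set these 3 libraries apart was not tested. In bulk RNA, fewer cells of a type and less RNA per cell cannot be told apart.

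Nitrate transporter 1.1 was high in the middle of the life of both organs. In cotyledon, Glyma11g03430.1 had 8.96, 10.5 and 7.63 normalized counts at C-I, 335, 405 and 588 at C-II, and 159.9, 133 and 101 at C-III. No library of any cotyledon stage overlapped those of another stage. Stages lay apart in this way, in either direction, in 49.5% of all tested transcripts for C-II over C-I. The share was 34.7% for C-III over C-II and 57.9% for C-III over C-I. In leaf it ran from 17.0% (L-V over L-IV) to 45.9% (L-V over L-I). The mean level of Glyma11g03430.1 at C-II was 49.0 times that at C-I (log2 fold change 5.44, SE 0.25). Its mean at C-III was 14.5 times that at C-I (3.70, SE 0.25). From the peak it fell by 1.73 on the log2 scale (SE 0.25) to C-III. All log2 fold changes are of normalized count + 1, which understates the change of low transcripts, and their SE comes from a limma fit over all libraries of the tissue.

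In leaf the same transcript had 45.5, 103 and 77.9 normalized counts in the L-I libraries, 242, 305 and 134 in L-II, 174, 128 and 240.5 in L-III, 69.7, 62.8 and 110.1 in L-IV, and 8.02, 61.7 and 54.2 in L-V. The libraries of L-II and L-III overlapped and lay above those of L-I, L-IV and L-V, and the libraries of L-I overlapped those of L-IV and L-V. The log2 fold change was 1.28 (SE 0.58) for L-III over L-I and -2.48 (SE 0.58) for L-V over L-III. The lowest values at L-II and L-V belonged to replicate 3 and replicate 1, the libraries of these stages lowest in light-harvesting reads. Without L-V replicate 1 the mean at L-V was 57.9 instead of 41.3 normalized counts and the log2 fold change for L-V over L-III was -1.58. Each peak had a wide spread, with a mean of 227 ± 86.3 normalized counts at L-II and 443 ± 131 at C-II (SD, n = 3 each), each on its own tissue's scale.

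Nitrate transporter 1.7, known from Arabidopsis for its part in moving nitrate out of old leaves, was higher at every later cotyledon stage and reached its highest mean at the last stage of each organ. Glyma18g16490.1 had 433, 1231 and 403 normalized counts at C-I, 8691, 6835 and 7279.8 at C-II, and 10683, 10887 and 16716 at C-III. No stage overlapped another. The C-II mean was 11.03 times that at C-I (log2 fold change 3.66, SE 0.35), and the C-III mean was 1.68 times that at C-II (0.72, SE 0.35). At C-III it had between 1881 and 2666 RPM in each library. Replicate 2 stood above the other C-I libraries, and without it the C-I mean was 418 instead of 689.

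In leaf, Glyma18g16490.1 had 17.0, 10.5 and 3.95 normalized counts in the L-I libraries, 4.49, 29.9 and 81.0 in L-II, 232, 239 and 655 in L-III, 1623, 1278 and 1019 in L-IV, and 8526, 2718 and 2153 in L-V. The libraries of L-I and L-II overlapped, and from L-II on each stage lay wholly above the one before. The L-V mean was 426 times that at L-I (log2 fold change 8.51, SE 0.78), with 5.04 (SE 0.78) of it for L-III over L-I and 3.47 (SE 0.78) for L-V over L-III. Replicates 3 of L-II and 1 of L-V, the libraries lowest in light-harvesting reads, were also the highest of their stages for this transcript. Without them the mean was 17.2 instead of 38.4 normalized counts at L-II, and 2435 instead of 4466 at L-V. Without L-III replicate 3, the highest of its stage, the L-III mean was 235 instead of 375. The L-IV mean was 1307, and the order of the stage means was the same without these libraries.

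**Figure D1:**
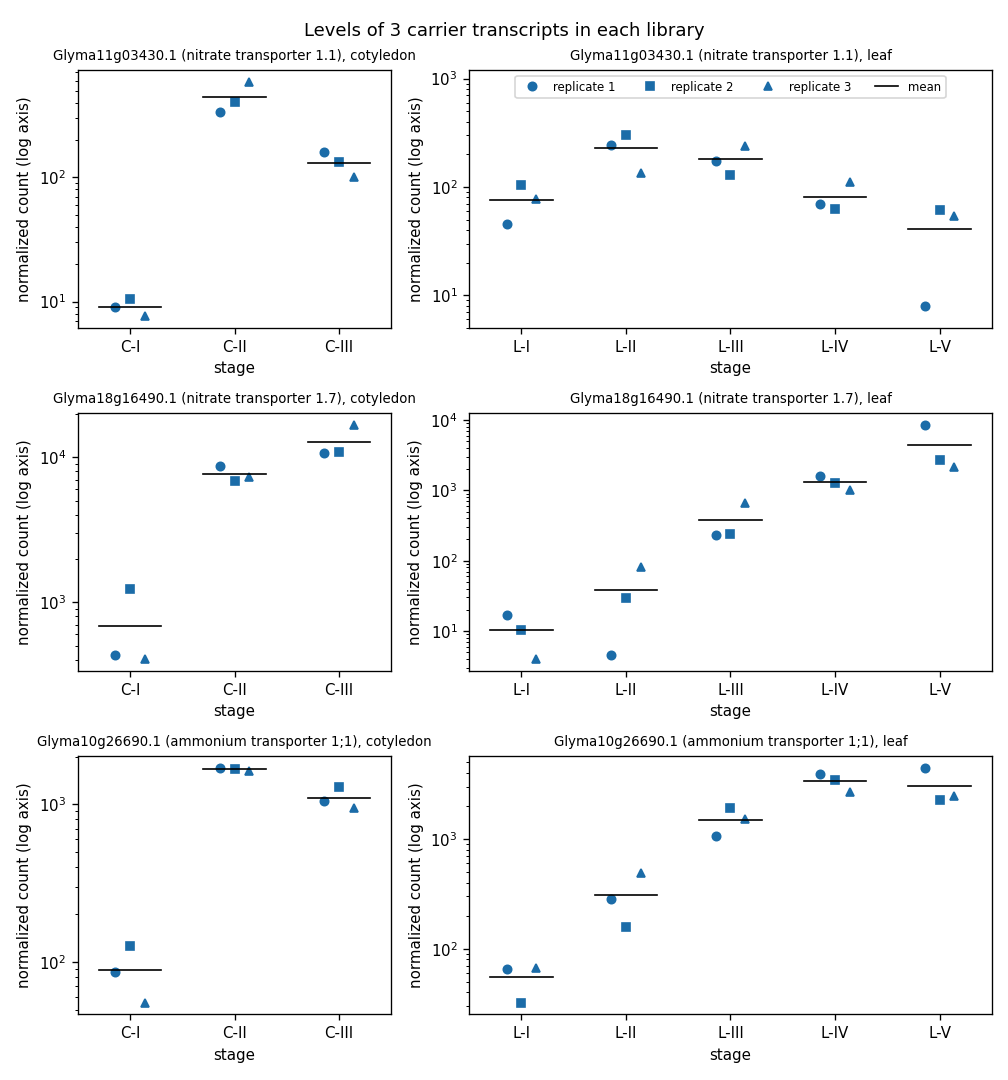
Normalized counts (log axis) of Glyma11g03430.1, Glyma18g16490.1 and Glyma10g26690.1 by stage, cotyledon on the left and leaf on the right, with 1 symbol per library and a line at the mean of 3. Nitrate transporter 1.1 peaks at C-II and at L-II and L-III, nitrate transporter 1.7 climbs to means of 12762 at C-III and 4466 at L-V, and ammonium transporter 1;1 has its highest mean at C-II and at L-IV.

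Nitrate transporter 1:2 was read at a low level in leaf and was lowest at the last stages. The 3 transcripts of Glyma05g01380 together had 30.3 ± 12.4 normalized counts in L-I leaves, 31.4 ± 25.7 in L-II, 60.8 ± 10.04 in L-III, 5.17 ± 2.57 in L-IV and 1.42 ± 1.23 in L-V (SD, n = 3 each). By library the sums were 70.1, 50.2 and 62.1 in L-III, 6.41, 2.22 and 6.88 in L-IV, and 0, 2.06 and 2.20 in L-V. Every L-IV and L-V library thus lay below every L-III library. Summed over the 3 libraries of a stage these were 219 reads in L-III, 18 in L-IV and 5 in L-V. Over the pooled reads the level at L-IV was 11.9 times lower than at L-III (95% exact interval 7.33 to 20.4) and at L-V 40.9 times lower (17.2 to 127). These intervals cover counting error only.

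The 3 transcripts of this locus moved alike. Mean levels at L-III were 26.3 normalized counts for Glyma05g01380.1, 17.7 for Glyma05g01380.2 and 16.8 for Glyma05g01380.3, and at L-IV 2.42, 1.13 and 1.62. At L-III the transcript Glyma05g01380.1 held 43.4% of the reads of the locus (95% Wilson interval 37.0 to 50.0), and at L-I it held 38.1% (27.1 to 50.4), so a difference of its share between these stages was within counting error. The lowest L-II value of the locus, 5.89 normalized counts against 31.0 and 57.2 in the other L-II libraries, was again that of replicate 3. In cotyledon the locus had 5 reads over the libraries of C-I, 27 over those of C-II and 8 over those of C-III, near the floor of detection throughout.

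Ammonium transporter 1;1 had its highest cotyledon level at the middle stage, and was higher at each leaf stage up to L-IV. In cotyledon, Glyma10g26690.1 had 86.6, 127 and 55.4 normalized counts at C-I, 1689.7, 1668 and 1628 at C-II, and 1042, 1279 and 943 at C-III. The stages did not overlap, with C-II above C-III and both above C-I. The C-II mean was 18.6 times that at C-I (log2 fold change 4.28, SE 0.24), and the log2 fold change for C-III over C-II was -0.62 (SE 0.24).

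In leaf, Glyma10g26690.1 had 65.4, 32.4 and 67.1 normalized counts in the L-I libraries, 283, 158 and 495 in L-II, 1063, 1896 and 1522 in L-III, 3867, 3476.5 and 2674 in L-IV, and 4415, 2243 and 2439 in L-V. Each stage up to L-IV lay wholly above the one before, while L-V and L-IV overlapped. The log2 fold change was 4.77 (SE 0.41) for L-III over L-I and 0.99 (SE 0.41) for L-V over L-III, and the L-V mean was 55.2 times that at L-I. The highest values at L-II and at L-V again belonged to replicate 3 and replicate 1, and without them the means were 220.2 instead of 312 at L-II and 2341 instead of 3032 at L-V. The lowest value at L-III, 1063, was that of replicate 1, the library highest in rubisco reads.

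Amino acid transporter 1 was absent or nearly so in young organs and high in old ones. No read of either listed transcript of Glyma09g21070 was found in the C-I libraries. Together they had 10.9, 10.3 and 17.3 normalized counts at C-II and 115, 97.5 and 116 at C-III, with no overlap between the stages. Against the floor of 3 reads per library at C-I, the level of Glyma09g21070.2 was at least 19.3-fold higher at C-III and that of Glyma09g21070.3 at least 6.43-fold higher. The C-III mean of Glyma09g21070.2 was 8.98 times that at C-II (log2 fold change 3.13, SE 0.43).

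In leaf the locus had 1 read over the 3 libraries of L-I, 7 over those of L-II and 58 over those of L-III, but 987 over those of L-IV and 1596 over those of L-V. The sums by library were 7.61, 17.1 and 24.6 normalized counts in L-III, 263, 260.3 and 301 in L-IV, and 314, 371 and 646 in L-V. The lowest L-III value was that of replicate 1, the library highest in rubisco reads. Each of these stages lay wholly above the one before, and the greater part of the climb fell between L-III and L-IV. The mean of Glyma09g21070.2 at L-IV was 15.0 times that at L-III (log2 fold change 4.07, SE 0.52), and that at L-V was 1.54 times that at L-IV (0.56, SE 0.52). Over the pooled reads Glyma09g21070.2 was 783 times higher at L-V than at L-I, where it had 1 read, and the 95% exact interval of 140.3 to 30956 shows how little that single read fixes. Unlike nitrate transporter 1.7, this locus was not highest in L-V replicate 1, whose 314 normalized counts were the lowest of the stage.

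Of the transcripts of Glyma09g21070, Glyma09g21070.2 had the larger share of reads at every stage with reads. Glyma09g21070.2 held 74.9% of the reads of the locus at C-III (95% Wilson interval 71.0 to 78.4), 77.1% (74.4 to 79.6) in L-IV leaves and 73.1% (70.9 to 75.2) in L-V leaves. Its share was 84.5% (73.1 to 91.6) in L-III leaves, from 58 reads. The shares of single libraries at C-III, L-IV and L-V ran from 71.4% to 82.1%. Since only unique reads were counted, the shares also reflect how much sequence each transcript has of its own.

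**Figure D2:**
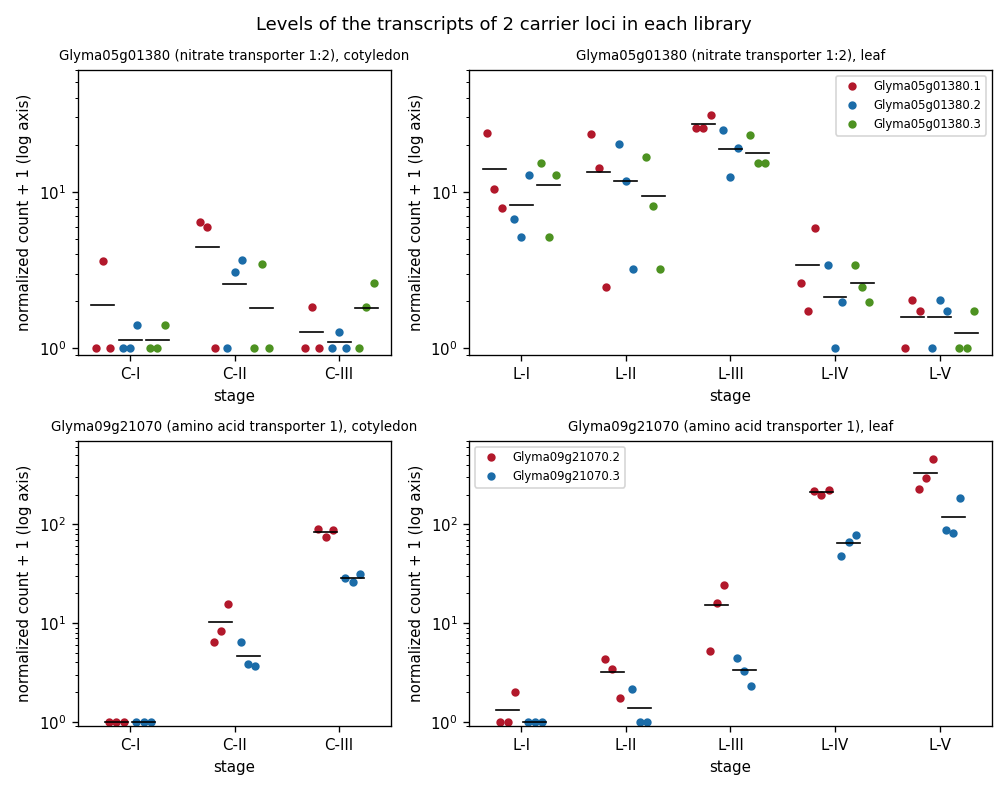
Normalized counts plus 1 (log axis) of the transcripts of Glyma05g01380 (top) and Glyma09g21070 (bottom) by stage, cotyledon on the left and leaf on the right, with 1 point per library, replicates 1 to 3 from left to right within each transcript, and a line at the mean of 3. The transcripts of a locus run side by side: those of nitrate transporter 1:2 drop after L-III, and those of amino acid transporter 1 have no reads at C-I and means of 211 and 63.3 normalized counts at L-IV.

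From stage to stage, then, the 5 loci did not share a single course. In cotyledon the steepest step of the 3 loci with a single transcript lay between C-I and C-II, after which nitrate transporter 1.1 fell, ammonium transporter 1;1 had a log2 fold change of -0.62 and nitrate transporter 1.7 of 0.72. In leaf the steps were spread out, and the steps of ammonium transporter 1;1 up to L-III were alike (the L-II mean was 5.67 times that at L-I and the L-III mean 4.79 times that at L-II), the largest step of nitrate transporter 1.7 was L-III over L-II (3.79, SE 0.78) and that of amino acid transporter 1 was L-IV over L-III. The last leaf step, L-V over L-IV, had log2 fold changes between -1.34 and 1.52 in the transcripts shown in the plot of steps.

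**Figure D3:**
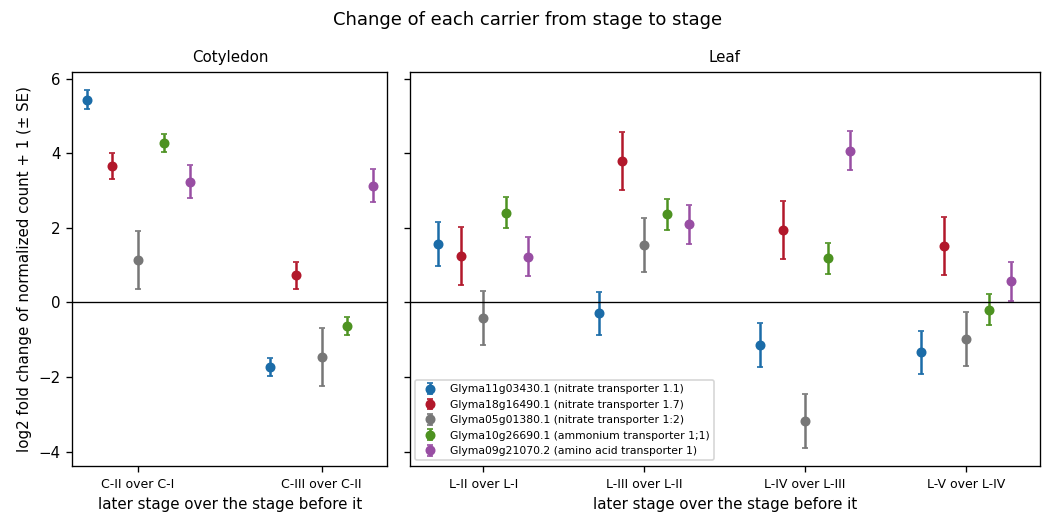
Log2 fold change of normalized count + 1 with its SE for each stage over the one before, in cotyledon (left) and leaf (right), for 1 transcript of each of the 5 loci. The C-II over C-I values run from 1.13 to 5.44, and only nitrate transporter 1:2 and nitrate transporter 1.1 are below 0 at L-IV over L-III (-3.18 and -1.15).

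A transcript was called changed at a Benjamini-Hochberg adjusted p below 0.05 and a log2 fold change over 1.5 in size. The filter on low reads left 6 of the 8 transcripts of the set in cotyledon, Glyma05g01380.2 and Glyma05g01380.3 being too low there, and all 8 in leaf. For C-II over C-I, 5 were called higher, against 25.4% of all tested transcripts called in either direction, and for C-III over C-I again 5 higher (30.8%). For C-III over C-II, 2 were higher and 1 lower (8.58%). In leaf, 4 were higher for L-III over L-I (21.7%), 3 higher and 4 lower for L-V over L-III (5.90%), and 4 higher and 3 lower for L-V over L-I (31.1%). As the loci were chosen by these changes, the counts describe the choice. The leaf rise of Glyma11g03430.1 was not called, either for L-III over L-I or for L-II over L-I (log2 fold change 1.57, SE 0.58). Leaving out 1 library ended the L-V over L-III call of Glyma11g03430.1 (without L-III replicate 1 or 3 or L-V replicate 1) and that of Glyma18g16490.1 (without L-III replicate 1 or L-V replicate 1). It likewise ended the L-V over L-I call of Glyma05g01380.2 (without L-I replicate 3; log2 fold change -1.95) and the L-III over L-I call of Glyma09g21070.3 (without L-III replicate 1; 1.46). It made a call of C-II over C-I for Glyma05g01380.1 (without C-II replicate 3; 2.01) and of L-V over L-I for Glyma11g03430.1 (without L-V replicate 2; -1.70). Other alternatives also ended some calls of the nitrate transcripts of the set. Among them were a fit of only the compared stages for L-V over L-III and a pseudocount of 5 for L-V over L-I.

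Other loci with the same annotations did not all follow the members. Of the 3 other loci annotated nitrate transporter 1.1, Glyma17g14830.1 alone had enough reads to be tested. It had 43.8, 67.2 and 81.4 normalized counts at C-III, against 21.8, 9.85 and 13.3 at C-II, and rose (log2 fold change 2.05, limma adjusted p = 0.0030), where Glyma11g03430.1 fell. In leaf it had 56.8, 40.8 and 74.0 at L-I and between 1.97 and 28.4 from L-II to L-IV. At L-V it had 95.3 in replicate 1, against 12.3 and 10.98 in the others, in the library where Glyma11g03430.1 had 8.02.

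Among the 4 other transcripts annotated nitrate transporter 1.7, Glyma01g04830.1 was 2.74 higher on the log2 scale at L-V than at L-I (SE 0.52, limma adjusted p = 0.00061), with 525, 308 and 181 normalized counts at L-V, against 31.3, 67.9 and 43.4 at L-I. In cotyledon it had 210, 176 and 233 at C-III, against 76.2, 71.4 and 27.9 at C-II (log2 fold change 1.92, limma adjusted p = 0.0043; 1.46, under the limit on size, without C-II replicate 3). For C-II over C-I, where Glyma18g16490.1 rose, Glyma01g04830.1 was called lower (log2 fold change between -1.95 and -1.08 when 1 library was left out). That call was lost in 3 of 9 such fits. For C-III over C-I it was not called (log2 fold change 0.38). Glyma18g16440.1 and Glyma02g02680.2 passed the test in no comparison of either tissue. Glyma02g02680.1 stayed at or under 6.91 normalized counts in every leaf library. It was called lower for L-II over L-I, a call lost in 2 of the 12 left-out fits that tested it. Its call as lower for L-V over L-I was lost in 7 of these 12.

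Of the 8 leaf-tested transcripts of the 13 other loci annotated nitrate transporter 1:2, Glyma17g10500.1 had a course like that of Glyma05g01380. It had 19.9, 8.36 and 14.8 normalized counts in the L-I libraries, 130.2, 124 and 21.4 in L-II, 166, 119.7 and 240.5 in L-III, 5.61, 3.70 and 13.8 in L-IV, and 8.02, 12.3 and 0 in L-V. It rose for L-III over L-I (log2 fold change 3.54, SE 0.83, limma adjusted p = 0.0048; 0.066 with a pseudocount of 0.1) and fell by 5.10 for L-V over L-III (SE 0.83, limma adjusted p = 0.0019; 0.106 when only those stages were fitted), and like Glyma05g01380 it was near the floor in cotyledon. Its L-II replicate 3 was also the low one. Others behaved differently: Glyma02g02620.1 had 51.7, 52.5 and 45.2 at C-II, against 5.97, 0 and 2.01 at C-I, and rose there (log2 fold change 4.20, limma adjusted p = 6.1e-05). Glyma19g41230.1 fell by 3.42 on the log2 scale in leaf, with 0, 0 and 1.29 at L-III, against 19.9, 11.5 and 9.86 at L-I (limma adjusted p = 0.0014).

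The other tested locus annotated ammonium transporter 1;1, Glyma20g21030, was likewise lowest at C-I and L-I. Glyma20g21030.1 had 544, 565 and 506 normalized counts at C-II, against 35.8, 43.1 and 24.1 at C-I (log2 fold change 3.97, SE 0.20, limma adjusted p = 2.2e-08). In leaf it had 691, 645 and 866 at L-III, against 62.5, 44.9 and 34.5 at L-I (3.96, SE 0.28, limma adjusted p = 1.4e-07). The later changes were not alike: Glyma20g21030.1 had log2 fold changes of 0.31 for C-III over C-II and 0.12 for L-V over L-III, neither of which passed the test, where Glyma10g26690.1 had -0.62 and 0.99. The difference between the loci was not tested. Glyma18g43540.1, annotated ammonium transporter 2, also rose in cotyledon, to 46.3, 43.1 and 47.8 at C-II, against 0, 0.879 and 0.803 at C-I (limma adjusted p = 2.5e-07). In leaf its levels were 239.6, 156 and 185 at L-V, against 14.2, 18.8 and 16.8 at L-I (log2 fold change 3.45, SE 0.34, limma adjusted p = 1.2e-06).

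The annotated nitrate and ammonium carriers as a whole comprised 57 loci with 68 transcripts, of which 38 transcripts were tested in cotyledon and 40 in leaf. For C-III over C-I, 17 were called higher and 5 lower of 38 (14 and 5 of 34 without the set described above), against 14.0% higher and 16.8% lower of all tested transcripts. For C-II over C-I, 13 were higher and 6 lower (11.6% and 13.8%), and for C-III over C-II, 7 higher and 2 lower (3.65% and 4.93%). In leaf, 12 were higher and 4 lower of 40 for L-III over L-I (7.74% and 13.9%), 5 higher and 6 lower for L-V over L-III (2.66% and 3.24%), and 11 higher and 8 lower for L-V over L-I (11.9% and 19.2%). Without the set, the cotyledon counts of 34 were 10 and 6 for C-II over C-I and 7 and 1 for C-III over C-II. The leaf counts without it were 10 and 4, 4 and 2, and 9 and 5 of 34.

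Given apart and without the set described above, the ammonium carriers had 8 tested transcripts and the nitrate carriers 26 in each tissue. For C-III over C-I, 4 ammonium transcripts were called higher and 1 lower (median log2 fold change 1.96), and 10 nitrate transcripts higher and 4 lower (median 0.36, or 0.23 with transcripts at the floor set to their bound), beside a median of -0.03 over all tested transcripts. For L-V over L-I, 4 ammonium transcripts were called higher and none lower (median 1.96), and 5 nitrate transcripts higher and 5 lower (median 0.06, or 0 with bounds), beside a median of -0.0040. With the set included the nitrate counts for L-V over L-I were 6 higher and 8 lower, the added lower calls being the 3 transcripts of Glyma05g01380. The ammonium transcript that fell in cotyledon was Glyma10g31130.1 (ammonium transporter 1;2), with 18.4 ± 7.63 normalized counts at C-III, against 94.1 ± 34.1 at C-I (SD, n = 3 each; limma adjusted p = 9.1e-05). Such medians describe the lists and are not a test between them. The lower calls were fewer where low counts weighed less. Both lists together, without the set, had 9 higher and 5 lower of 34 for L-V over L-I. These were 7 and 0 of 13 with a mean normalized count of at least 10, and 7 and 1 of 34 with a pseudocount of 5. For C-III over C-I, 14 higher and 5 lower of 34 became 7 and 1 of 14, and 11 and 1 of 34.

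The nitrate carriers that rose in both organs included Glyma08g39140.1 and Glyma18g20510.1, both annotated nitrate transporter2.5, a high-affinity carrier in Arabidopsis. Glyma08g39140.1 had 56.9, 50.3 and 19.1 normalized counts at C-III, against 0, 0 and 0.803 at C-I (limma adjusted p = 5.9e-06), and 82.0, 106.9 and 215 at L-V, against 0, 0 and 0.986 at L-I (limma adjusted p = 1.1e-06). Glyma18g20510.1 was at least 4.53-fold higher at C-III than at C-I, where it had no reads (limma adjusted p = 7.6e-04), and had 35.6, 24.7 and 82.7 at L-V, against 0, 0 and 1.97 at L-I (limma adjusted p = 4.8e-06). Glyma01g40850.1, annotated nitrate transporter 1.5, was without reads at C-I and L-I and was at least 12.2-fold higher at C-III (limma adjusted p = 5.7e-07). It had 6.24, 4.11 and 3.66 at L-V (limma adjusted p = 4.2e-04; log2 fold change 2.48, but 0.94 and not called with a pseudocount of 5). Among those lower at C-II than at C-I was Glyma18g11338.1, also annotated nitrate transporter 1.5, with 0, 0.821 and 0 normalized counts, against 11.9, 12.3 and 6.82 (limma adjusted p = 4.4e-04).

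The study's lists for transport of basic amino acids and of glutamate, arginine and lysine held 9 loci with 13 transcripts besides Glyma09g21070. By annotation 8 of these transcripts belong to amino acid carriers, and 5 to other proteins: Glyma20g21030 (ammonium transporter 1;1), Glyma13g41540 (ADP/ATP carrier 2, a mitochondrial nucleotide exchanger in Arabidopsis) and Glyma10g10210 (a plant syntaxin, a membrane fusion protein). All 13 were tested, and all 13 were called higher at C-III than at C-I (median log2 fold change 3.73) and at L-V than at L-I (4.74, or 4.08 with transcripts at the floor set to their bound), where 14.0% and 11.9% of all tested transcripts were. The 8 of amino acid carriers had medians of 3.61 and 4.78 (4.496 with bounds). The study drew these lists from genes of one leaf profile in the same leaf libraries, so their count is not independent evidence of their direction. The same holds for the leaf change of any single listed transcript, that of Glyma20g21030.1 above among them. Leaving out each library in turn gave between 12 and 13 calls for C-III over C-I, and pseudocounts of 0.1 or 5 gave 12.

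Among its carriers, Glyma16g06740.2 (lysine histidine transporter 1, which takes up amino acids in Arabidopsis) had 263, 257 and 263 normalized counts at C-III, against 5.97, 0.879 and 2.81 at C-I (log2 fold change 6.15, SE 0.37, limma adjusted p = 3.5e-08). At L-V it had 567, 661 and 833, against 2.84, 12.5 and 10.9 at L-I (6.32, SE 0.41). Glyma20g25660.1 (bidirectional amino acid transporter 1) had 173, 235 and 333 at C-III, against 0, 19.3 and 3.21 at C-I (5.76, SE 0.75, limma adjusted p = 3.6e-05). The other locus annotated amino acid transporter 1, Glyma08g13640, was also low in young organs. Glyma08g13640.3 had 20.1, 23.3 and 49.5 at C-III, against 0, 2.64 and 1.204 at C-I (3.89, SE 0.55, limma adjusted p = 7.8e-05). It had 40.1, 16.4 and 19.0 at L-V, against 0, 1.05 and 0.986 at L-I (3.93, SE 0.50). The highest of these L-V values was that of replicate 1. The leaf changes in this paragraph are given without a p-value, as the lists came from a profile of the same leaf libraries. Glyma16g06740.2 and Glyma20g25660.1 were also named after their values were seen, so their cotyledon p-values are not independent evidence either.

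Set side by side over the whole courses, 47 transcripts of the set and of these lists were tested in both tissues. Those of Glyma13g41540 and Glyma10g10210, which are not annotated as amino acid carriers, were among them. Of the set, Glyma18g16490.1, Glyma10g26690.1 and both transcripts of Glyma09g21070 were called higher at C-III than at C-I and at L-V than at L-I, as were 6.56% of the 48298 transcripts tested in both tissues. Glyma11g03430.1 was called higher in cotyledon and not in leaf (log2 fold changes 3.70 and -1.21), and Glyma05g01380.1 lower in leaf and not in cotyledon. These calls of the set describe how its loci were chosen. Of the other 21 nitrate transcripts, 4 were called higher in both tissues. Glyma08g40730.1 (nitrate transporter 1:2) was called in opposite directions, as were 0.938% of all, but its C-III over C-I call was lost without C-I replicate 2 (log2 fold change 1.44) or C-III replicate 3 (1.41), and its L-V over L-I call without L-I replicate 1 (limma adjusted p = 0.0503), L-V replicate 2 (0.086) or L-V replicate 3 (0.051). Both were lost with a pseudocount of 5. Of the other 8 ammonium transcripts, 4 were called higher in both.

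**Figure D4:**
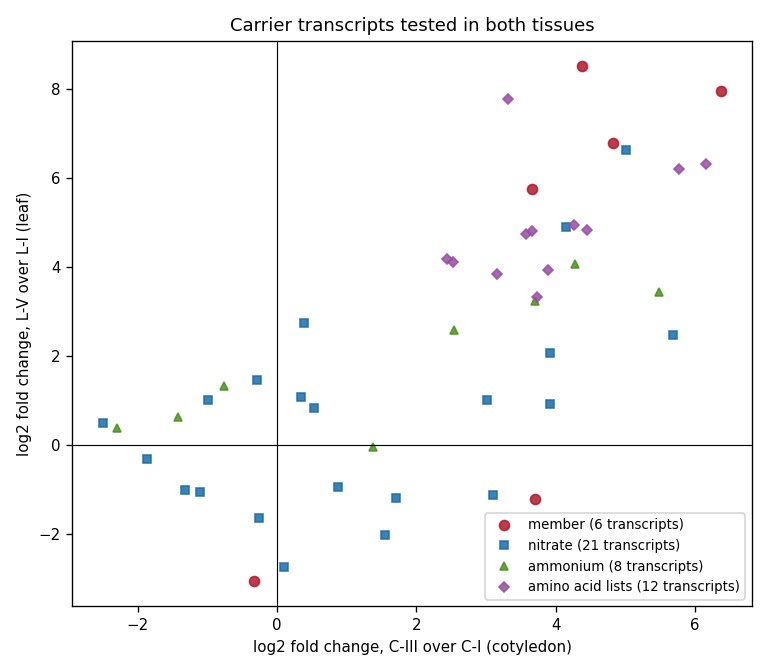
Log2 fold change of normalized count + 1 for C-III over C-I (x axis) and L-V over L-I (y axis), 1 point per transcript of the set or the lists tested in both tissues, with the described set as members (6 transcripts). The transcripts of the amino acid lists, some of them of other proteins, sit in the upper right. Of the 6 members 4 lie there too, and the nitrate carriers are spread on both sides of 0 on each axis.

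The transcripts most like each member were looked for among between 28373 and 28375 transcripts of other loci with a mean of at least 10 normalized counts in each tissue, by the lower of the Pearson r over the 9 cotyledon and over the 15 leaf libraries. All these points share libraries, and the values are a description. Glyma10g26690.1 was most like Glyma08g14890.1 (annotated cytochrome P450 superfamily protein; r 0.99 in cotyledon and 0.98 in leaf) and Glyma04g10940.3, Glyma18g16490.1 most like Glyma02g03160.2 (0.98 and 0.97) and Glyma07g07240.1, Glyma09g21070.2 most like Glyma09g29410.1 (0.98 and 0.97) and Glyma06g46450.1, and Glyma11g03430.1 most like Glyma08g20360.2 (0.96 and 0.93) and Glyma12g07660.1. The number of transcripts with r over 0.9 in both tissues was 293 for Glyma10g26690.1, 183 for Glyma18g16490.1, 141 for Glyma09g21070.2 and 5 for Glyma11g03430.1. For Glyma05g01380.1 it was 0, the highest being Glyma16g03515.2 (0.73 and 0.81), and its few cotyledon reads limit any such likeness.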

How the data were processed

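The authors aligned paired-end reads of 100 bases to the Gmax_189 transcripts with Bowtie, allowing 1 mismatch, and discarded reads that matched several transcripts. Counts were scaled and variance-stabilized by the authors with DESeq 1.0, and 1 table of log2 values per tissue was deposited. Cotyledon libraries were run 3 to a lane and all leaf libraries in a single lane. From these log2 values normalized counts and whole reads (within 0.05) were recovered by inverting the transformation. No count test was run, as the deposited unit is log2. Transcripts with at least 10 reads over the libraries of 1 stage (53357 in cotyledon, 50940 in leaf) entered 1 limma-trend fit per tissue (limma 3.58.1, R 4.3.3) on log2(normalized count + 1), with Benjamini-Hochberg adjustment over all of them. Simulated data with known changes served to test the script.

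The members and the gene lists were chosen with earlier results of these data known. Carriers other than the members were named by rule: the 2 largest calls in each direction per comparison whose stages did not overlap, loci that share a member's annotation, and the 2 transcripts most alike to each member. The other amino acid carriers named were chosen after their values were seen. Annotations come from the study's sheets and identifiers from the deposited tables. Alternatives were other pseudocounts, filters, scalings and call limits, the deposited values as they stand, a fit of only the stages compared, a replicate block, and leaving out each library. Nothing says that replicates with the same number belong together. Intervals cover counting error only.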

Additional observations from a re-analysis of the deposited data

Results flagged for a closer look

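In 5 cases every library of the later stage moved one way in cotyledon and the opposite way in leaf. In each of them the difference between the tissues was not tested. For Glyma08g40730.1 (nitrate transporter 1:2) the log2 fold change was 1.56 for C-III over C-I and -2.02 for L-V over L-I, a difference of 3.58, and 1.29 for C-II over C-I and -2.29 for L-III over L-I, again a difference of 3.58. Its levels were low, with 9.48, 11.4 and 14.4 normalized counts at C-III, against 2.99, 2.64 and 4.42 at C-I, and 8.02, 1.03 and 2.20 at L-V, against 17.0, 14.6 and 12.8 at L-I, and the higher L-V value was that of replicate 1, the library lowest in light-harvesting reads. The whole-course calls of this transcript were each lost when certain single libraries were left out. For Glyma19g41230.1 (nitrate transporter 1:2) it was 1.53 for C-II over C-I and -3.42 for L-III over L-I, a difference of 4.96. Over the whole cotyledon course, C-III over C-I, this transcript was not called (0.11). For Glyma18g16370.1 (nitrate transporter 1:2) it was 1.59 for C-III over C-II and -1.14 for L-V over L-III, a difference of 2.73. For the ammonium transporter Glyma10g26690.1 it was -0.62 for C-III over C-II and 0.99 for L-V over L-III, a difference of -1.61. Of these log2 fold changes, 1.29, -1.14, -0.62 and 0.99 were under the limit of 1.5 in size and were not called.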

How the results depend on the processing

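Counts of called nitrate and ammonium transcripts kept within 1.5 times their value under most alternatives, and no called result changed direction. The exceptions were, for C-II over C-I, 11 with a mean normalized count of at least 10 and 12 with a pseudocount of 5 (19 in the report); for C-III over C-II, 5 with a pseudocount of 0.1 and 5 with one of 5 (9); for C-III over C-I, 11 with the mean of at least 10 (22); for L-III over L-I, 10 with a pseudocount of 5 (16); for L-V over L-III, 4 when only those stages were fitted (11); and for L-V over L-I, 10 with the mean of at least 10 and 11 with a pseudocount of 5 (19). The stricter filter left 17 transcripts to test in each tissue; other causes were not tested. Leaving out 1 library gave 17 to 19 calls for C-II over C-I, 5 to 10 for C-III over C-II (5 without C-II replicate 3, C-III replicate 1 or C-III replicate 2), 22 to 24 for C-III over C-I, 11 to 16 for L-III over L-I, 8 to 12 for L-V over L-III and 14 to 19 for L-V over L-I.

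Replicate numbers did not pair the libraries (r of same-numbered libraries between -0.08 and 0.07 in cotyledon and between -0.20 and 0.20 in leaf). With the replicate block the counts were 19, 8, 23, 15, 10 and 19 in the order above. Over all tested transcripts the pseudocount of 5 gave 8688 calls for C-II over C-I (13536 in the report), 2841 for C-III over C-II (4580), 6974 for L-III over L-I (11029) and 10231 for L-V over L-I (15840). The adjusted p alone gave 21551, 9044 and 25143 for C-II over C-I, C-III over C-II and C-III over C-I (16435), the mean of at least 10 gave 6245 for L-III over L-I and 9233 for L-V over L-I, and fitting only those stages gave 278 for L-V over L-III (3004). The last count was 1433 without L-III replicate 1, 1492 without L-III replicate 3 and 1357 without L-V replicate 1. Scaling by total reads moved the median of all transcripts by up to 0.26 on the log2 scale, and for L-III over L-I the share of higher calls was 45.9% with it and 46.2% with the mean of at least 10 (35.7%). Transcripts with few reads are limited by depth: pseudocounts moved the log2 fold changes of Glyma05g01380 and Glyma09g21070 most, to values between 5.90 and 10.5 for Glyma09g21070.2 at L-V over L-I.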

Other observations

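Some nitrate carriers were lower at C-II than at C-I. Glyma18g11346.1, annotated nitrate transporter 1.8, which in Arabidopsis takes nitrate out of the xylem, had 2.72, 1.23 and 0 normalized counts at C-II, against 23.9, 14.1 and 11.6 at C-I (limma adjusted p = 0.0018). Glyma18g16370.1, annotated nitrate transporter 1:2, had 21.8, 25.9 and 19.9 at C-II, against 86.6, 128 and 51.4 at C-I (log2 fold change -1.84, SE 0.30, limma adjusted p = 2.8e-04), and had 66.3, 68.3 and 73.4 at C-III. In leaf, Glyma10g31130.1 (ammonium transporter 1;2) had 131.8, 95.8 and 175 at L-III, against 5.68, 38.7 and 9.86 at L-I (log2 fold change 3.20, SE 0.80, limma adjusted p = 0.0068). Its fall from L-III to L-V (log2 fold change -2.82) was lost in 8 of the 15 fits that left out 1 library, with the replicate block (limma adjusted p = 0.061) and when only those stages were fitted (0.1404).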
